A study of Mus musculus with 15 samples.

Results

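The 44 genes described here mark the tissue that surrounds colonic crypts. They comprise 21 fibroblast and matrix genes, 9 smooth muscle genes, 12 endothelial genes and 2 glial genes, found by gene symbol among the 32939 genes of the count table. All 44 were found. RNA was sequenced from colon crypts of wild-type mice in 15 libraries, 5 in each of 3 groups. FL-shAlpl mice had fatty liver on a CDAA diet and AAV-shAlpl, a viral vector with a short hairpin RNA to Alpl, the gene of tissue-nonspecific alkaline phosphatase. FL-shGFP mice had fatty liver on the CDAA diet and AAV-shGFP, the control vector. NL-shGFP mice had normal liver on a normal diet and AAV-shGFP. Diet and liver state changed together, every mouse carried a vector, and no group with normal liver received AAV-shAlpl. The labels give no age, sex, vector promoter or tissue reached by the vector, and leave open whether replicates came from different mice, so p-values may measure only technical spread.

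A crypt is an epithelial gland set in the lamina propria. Fibroblasts of the lamina propria lay down collagens and proteoglycans and secrete Wnt ligands and BMP antagonists that act on the stem cells at the crypt base. Thin strands of smooth muscle, capillaries, lymphatic vessels and enteric glia run between the crypts. In RNA of a whole preparation, fewer cells of a type and less RNA per cell cannot be told apart. Several of the 44 genes are shared between cell types: Vim is also made by leukocytes, Lyve1 by some macrophages, Pdgfrb by pericytes and Acta2 by myofibroblasts.

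The 44 genes stood at low to middle levels. By the mean FPKM over the 15 libraries, a level per gene length, 0 of 44 exceeded 10 FPKM, which 11.8% of all genes did, 13 exceeded 1 FPKM, which 35.4% of all genes did, and 8 were under 0.1 FPKM, as 44.7% of all genes were. Vim (7.65 FPKM), Dcn (6.69), Mgp (4.16) and Fn1 (3.08) had the highest levels, and in FL-shGFP alone Dcn, Vim and Mgp averaged 12.6, 11.2 and 10.7 FPKM. Among smooth muscle genes Tpm2 led with 1.52 FPKM, and among endothelial genes Lyve1 led with 1.94 FPKM. The glial gene Sox10 was lowest of all at 0.00670 FPKM. Markers of epithelium were abundant throughout, with Epcam at 1219 ± 180.3 CPM in FL-shAlpl, 1675 ± 333 CPM in FL-shGFP and 1234 ± 64.6 CPM in NL-shGFP (SD, n = 5 each), where CPM is a gene's count scaled to library size and corrected for library composition.

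The promoters of the basement membrane collagen pair and of a smooth muscle gene are shown because the pair lies head to head and its members are set side by side below, and because the CArG box, the motif bound by serum response factor, is known from smooth muscle promoters. Each window runs from 250 bases before to 50 bases after the annotated start, 5′ to 3′ on the gene's strand, from RefSeq (GRCm38.p6). Capitals mark the 78 bases that the Col4a1 and Col4a2 windows share, on opposite strands, with starts 21 bases apart. The annotated 5′ ends overlap, so that each start lies inside the other gene. The last 50 capitals of each window follow its own start, and part of the bases before each start belongs to the other gene. In Myl9 they mark a CArG box that begins 161 bases before the start.
Col4a2 promoter, chr8:11312555-11312854 (+): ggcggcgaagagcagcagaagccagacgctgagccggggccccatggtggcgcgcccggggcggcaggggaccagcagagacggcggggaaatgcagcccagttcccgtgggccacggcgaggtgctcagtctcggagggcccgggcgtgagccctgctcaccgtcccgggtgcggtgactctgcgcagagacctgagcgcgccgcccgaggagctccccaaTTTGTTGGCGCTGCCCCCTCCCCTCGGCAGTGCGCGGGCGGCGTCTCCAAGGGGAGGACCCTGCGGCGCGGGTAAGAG
Col4a1 promoter, chr8:11312777-11313076 (-): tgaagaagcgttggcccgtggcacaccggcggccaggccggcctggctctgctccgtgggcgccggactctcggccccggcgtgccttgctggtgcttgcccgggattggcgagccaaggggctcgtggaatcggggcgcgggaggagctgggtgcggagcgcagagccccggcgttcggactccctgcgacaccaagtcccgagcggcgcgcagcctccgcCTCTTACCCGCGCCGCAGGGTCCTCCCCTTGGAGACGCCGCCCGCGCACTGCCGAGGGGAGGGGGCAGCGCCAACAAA
Myl9 promoter, chr2:156775214-156775513 (+): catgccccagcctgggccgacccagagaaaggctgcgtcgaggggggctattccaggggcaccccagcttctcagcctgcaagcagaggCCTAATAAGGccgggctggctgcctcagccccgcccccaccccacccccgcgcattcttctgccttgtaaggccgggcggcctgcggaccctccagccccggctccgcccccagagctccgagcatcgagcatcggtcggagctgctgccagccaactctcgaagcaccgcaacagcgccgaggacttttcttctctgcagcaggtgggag
Of the 44 genes, 28 had a window in the table. A CArG box was found, on either strand, in 1 of 6 smooth muscle windows and in 0 of 22 others, against 1.63% of all 32851 windows. No match says only that the letters are not in this window.

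The libraries held 33.3 M to 58.6 M counts. Alpl itself had 6, 2, 2, 2 and 0 counts in FL-shAlpl replicates 1 to 5, 15, 14, 18, 25 and 23 counts in FL-shGFP, and 0, 2, 0, 0 and 0 counts in NL-shGFP. It fell by 3.16 ± 0.63 (log2, ± standard error) in FL-shAlpl against FL-shGFP (adjusted p = 0.00197, edgeR). Mitochondrially encoded genes took 14.8% to 24.3% of counts in FL-shAlpl, 13.7% to 21.5% in FL-shGFP and 28.0% to 37.5% in NL-shGFP. NL-shGFP replicates 3 and 4 resembled each other more than the other NL-shGFP libraries did, with a median chi-square per gene of 0.673 against 0.901 to 3.57 for the other pairs and 0.455 for counts that differ by sampling alone. Replicates 1 and 2 were the next closest. Since every pair differed beyond sampling noise, 5 libraries were kept. Small counts were mostly even, so 2 counts may be 1 fragment.

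**Figure D1:**
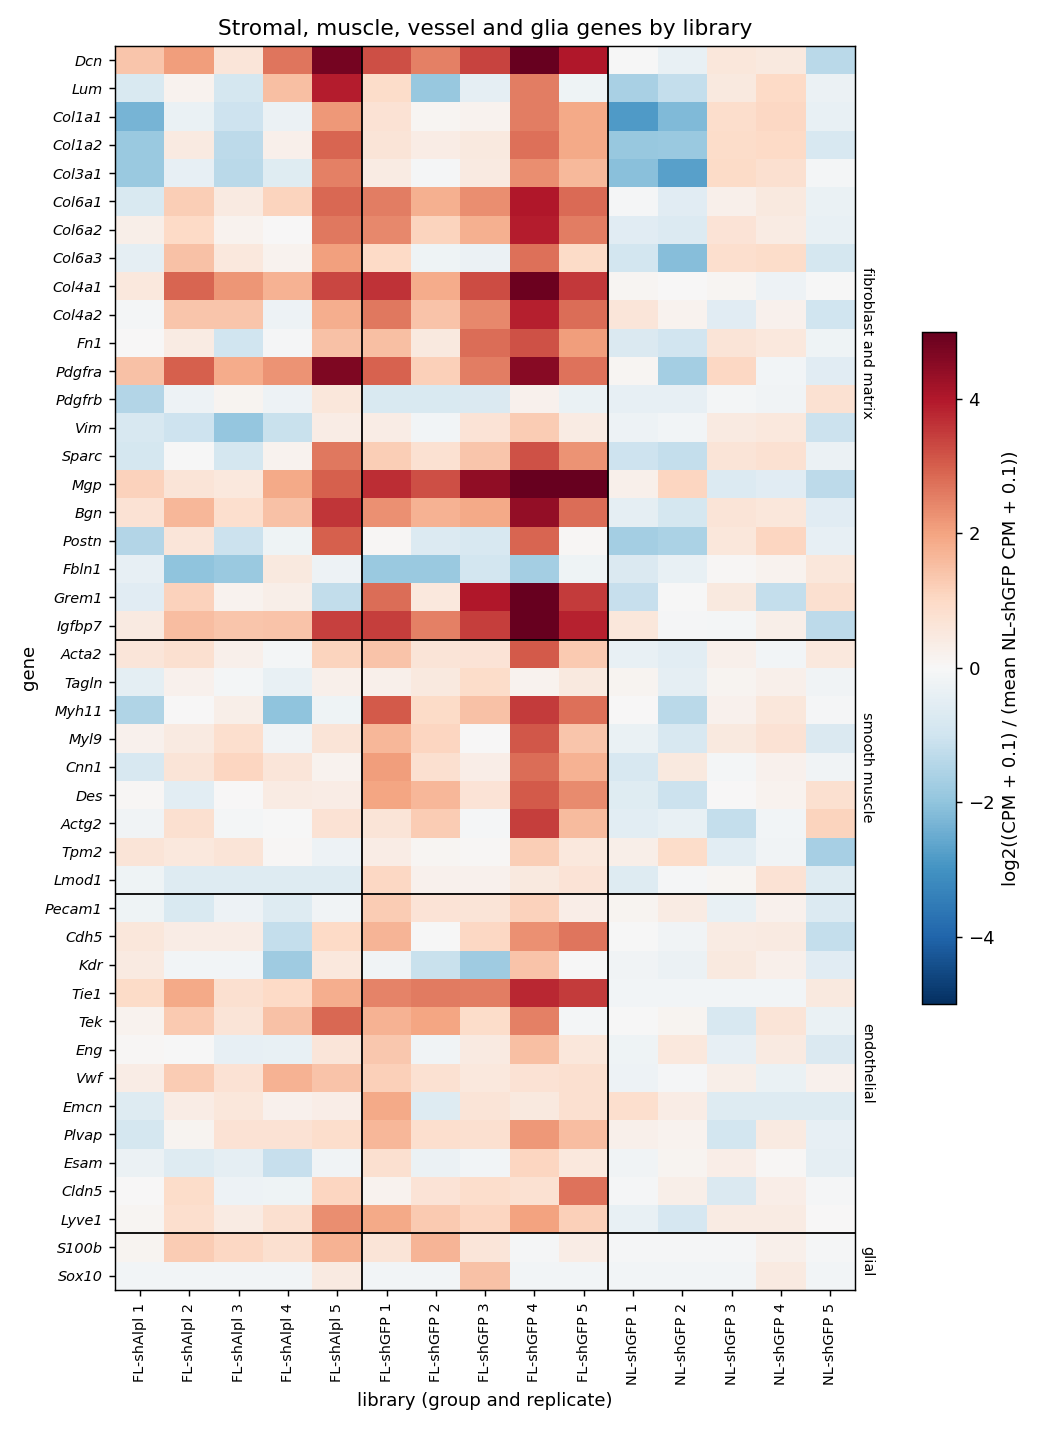
Level of each of the 44 genes (rows, by class) in each of the 15 libraries (columns, by group and replicate). The colour is log2 of CPM + 0.1 over the mean NL-shGFP CPM + 0.1, red for higher and blue for lower, with colours limited at 5 in either direction. FL-shGFP replicate 4 and FL-shAlpl replicate 5 are the reddest columns, FL-shAlpl replicate 5 mostly among fibroblast and matrix genes.

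FL-shGFP against NL-shGFP asks how crypt RNA differs with fatty liver and the diet that goes with it. Genes of all 3 classes tested were among those higher in FL-shGFP. Of 38 genes that passed the filter on low counts, 24 were higher and 0 lower, with a median log2 fold change of 1.90, against 25.1% higher, 21.6% lower and 46.7% in either direction among all 17404 genes tested, whose median was -0.00162 (edgeR quasi-likelihood test, Benjamini-Hochberg adjusted p below 0.05 over all genes). For 15 of the 38, all 5 FL-shGFP libraries lay above every NL-shGFP library, and for 0 all lay below, against 18.1% and 16.2% of all genes. Among genes with more than 3 counts in NL-shGFP, mean CPM differed most for Mgp (28.9-fold), Igfbp7 (20.3-fold), Grem1 (18.9-fold), Dcn (16.4-fold) and Col4a1 (15.1-fold). The 6 genes not tested were Cnn1, Lmod1, Emcn, Cldn5, S100b and Sox10. Tie1, Cdh5 and Actg2 passed the filter only through their FL-shGFP libraries, the group where they were highest. They are among the 24 higher, and Tie1 is also among the 15 without overlap. Their presence in these counts was thus favoured by the filter, as was that of Tie1 in the comparisons below. Without FL-shGFP replicate 4, 21 genes were higher and 0 lower.

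FL-shAlpl against FL-shGFP asks what changes when the fatty liver mice carry the vector to Alpl. Part of the stromal RNA was lower in FL-shAlpl. Of the 38 genes 14 were lower and 0 higher, with a median of -1.12, against 17.9% lower, 18% higher and 36% in either direction among all genes, whose median was -0.00371. For 5 genes all FL-shAlpl libraries lay below every FL-shGFP library, and for 0 above, against 9.29% and 7.63% of all genes. The count changed most with 2 libraries. It was 8 without FL-shGFP replicate 4, 23 without FL-shAlpl replicate 5 and 16 without both. FL-shAlpl against NL-shGFP gave 8 higher and 0 lower genes, with a median of 0.66, against 9.31% higher, 8.12% lower and 17.4% in either direction among all genes, whose median was 0.05. For 6 genes all FL-shAlpl libraries lay above every NL-shGFP library, and for 0 below, against 7.53% and 7% of all genes. Without both libraries 7 genes were higher and 1 lower, and without FL-shAlpl replicate 5 alone 5 were higher and 1 lower, the lower gene being Vim in both. The comparisons share libraries, FL-shGFP in the first and second and NL-shGFP in the first and last, so their values are set side by side and not counted as independent.

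**Figure D2:**
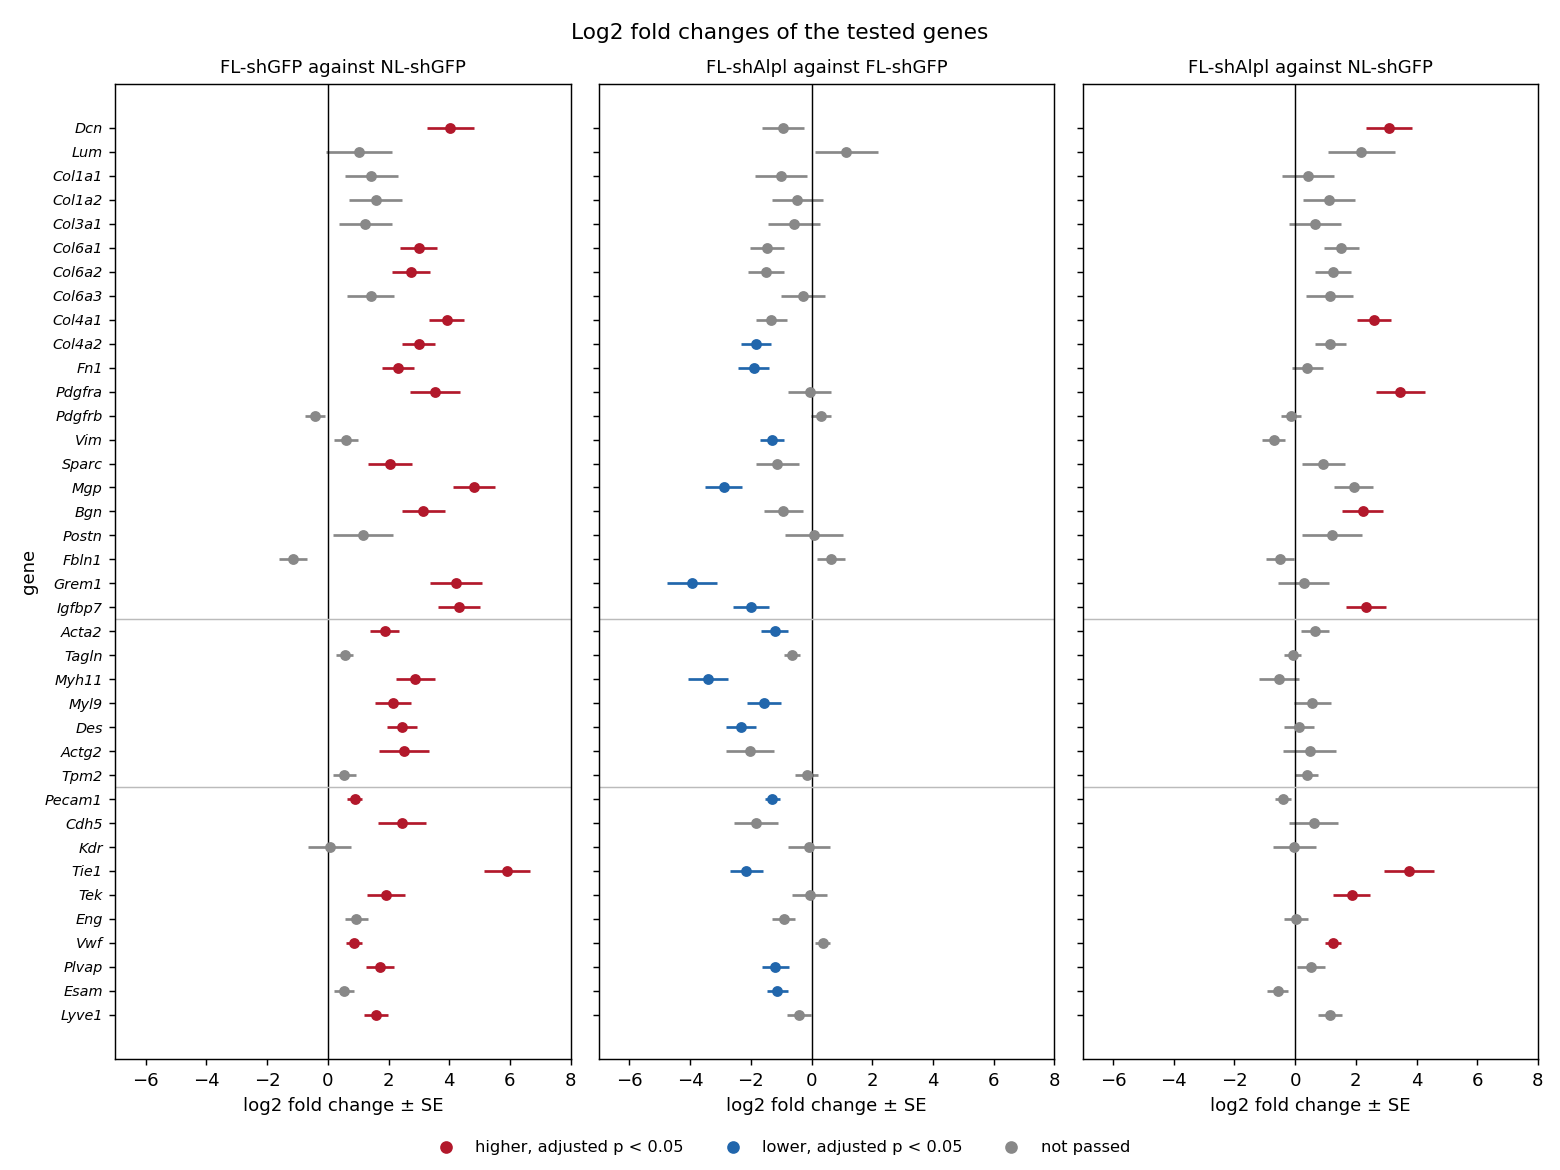
Log2 fold changes (points) with standard errors (bars) of the 38 tested genes in the 3 comparisons, from edgeR. Rows run from fibroblast and matrix genes through smooth muscle to endothelial genes, divided by lines. In the left panel 24 genes are red (higher) and 0 blue (lower), in the middle panel 14 are blue and 0 red, and in the right panel 8 are red and 0 blue.

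Of the 21 fibroblast and matrix genes, all tested, 12 were higher in FL-shGFP than in NL-shGFP (median 2.30, 9 without overlap between the groups). The 12 were the proteoglycans Dcn and Bgn, the type VI collagen chains Col6a1 and Col6a2, the type IV chains Col4a1 and Col4a2, fibronectin (Fn1), the receptor Pdgfra, Sparc, Mgp, Grem1 and Igfbp7. In FL-shAlpl 6 were lower than in FL-shGFP (median -0.997, 1 without overlap). These were Fn1, Vim, Mgp, Grem1, Igfbp7 and Col4a2. Against NL-shGFP 5 were higher in FL-shAlpl (median 1.15): Dcn, Bgn, Pdgfra, Col4a1 and Igfbp7. These counts, and those of the smooth muscle and endothelial genes below, stand against the shares of all genes. In FL-shGFP over NL-shGFP 25.1% were higher and 18.1% were higher without overlap. In FL-shAlpl against FL-shGFP 17.9% were lower and 9.29% were lower without overlap, a share that 1 of 21 did not reach. In FL-shAlpl over NL-shGFP 9.31% were higher.

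Mgp, encoding matrix Gla protein, an inhibitor of calcification made by fibroblasts and vessel walls, had 1.09, 0.727, 0.664, 1.87 and 4.15 CPM in FL-shAlpl replicates 1 to 5 and 6.83, 4.88, 11.5, 16.7 and 22.6 CPM in FL-shGFP. In NL-shGFP it had 0.539, 1.02, 0.229, 0.265 and 0.114 CPM. Every FL-shGFP library lay above every library of the other groups. Mgp rose by 4.82 ± 0.68 in FL-shGFP over NL-shGFP (adjusted p = 0.000108, edgeR) and fell by 2.89 ± 0.61 in FL-shAlpl against FL-shGFP (adjusted p = 0.00281, edgeR). With each library left out in turn, the rise ran from 4.49 without FL-shGFP replicate 5 to 5.43 without NL-shGFP replicate 2.

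Grem1, encoding gremlin-1, a BMP antagonist secreted by fibroblasts beneath the crypt base, had 0.136, 0.693, 0.303, 0.333 and 0.0494 CPM in FL-shAlpl, 2.33, 0.405, 5.64, 11.7 and 3.84 CPM in FL-shGFP and 0.0599, 0.249, 0.392, 0.0529 and 0.512 CPM in NL-shGFP. FL-shGFP replicate 2 was low and overlapped both other groups, while the other 4 FL-shGFP libraries lay above them all. Grem1 rose by 4.23 ± 0.85 over NL-shGFP (adjusted p = 0.00125, edgeR) and fell by 3.94 ± 0.82 in FL-shAlpl (adjusted p = 0.00266, edgeR), a log2 change that ran from -4.55 without FL-shAlpl replicate 2 to -3.30 without FL-shGFP replicate 4. FL-shAlpl replicate 5, the library of that group highest in most matrix genes, was the lowest of the 15 in Grem1.

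The type IV collagen chains form the network of basement membranes. Col4a1 had 1.07, 6.11, 3.68, 2.60 and 8.18 CPM in FL-shAlpl, 9.80, 2.84, 7.82, 24.4 and 9.28 CPM in FL-shGFP and 0.779, 0.723, 0.785, 0.582 and 0.711 CPM in NL-shGFP. Its NL-shGFP values were nearly alike, and every library of either fatty liver group lay above them. Col4a1 rose by 3.91 ± 0.58 in FL-shGFP (adjusted p = 0.000149, edgeR) and by 2.59 ± 0.56 in FL-shAlpl (adjusted p = 0.00603, edgeR) over NL-shGFP. Against FL-shGFP the FL-shAlpl value was -1.32 ± 0.51 and did not pass (adjusted p = 0.0544, edgeR), and without FL-shAlpl replicate 5 it was -1.68 and passed.

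Col4a2, the head-to-head partner whose promoter window is shown above, had 0.713, 2.18, 2.18, 0.624 and 2.94 CPM in FL-shAlpl, 5.34, 2.25, 4.45, 12.8 and 5.98 CPM in FL-shGFP and 1.23, 0.897, 0.490, 0.900 and 0.341 CPM in NL-shGFP. The FL-shGFP and NL-shGFP libraries did not overlap. It rose by 2.99 ± 0.53 in FL-shGFP (adjusted p = 0.000496, edgeR) and fell by 1.83 ± 0.50 in FL-shAlpl against FL-shGFP (adjusted p = 0.0113, edgeR). Per gene length, Col4a1 stood at 1.33 to 3.69 times Col4a2 in FL-shAlpl, 1.12 to 1.69 times in FL-shGFP and 0.562 to 1.85 times in NL-shGFP, with medians of 2.47, 1.56 and 0.714 (ratios of FPKM). The ranges overlap.

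Fn1, encoding the adhesive matrix protein fibronectin, had 15.3, 20.05, 7.57, 14.4 and 42.3 CPM in FL-shAlpl, 43.0, 21.4, 106, 137 and 64.7 CPM in FL-shGFP and 9.11, 7.65, 23.8, 21.8 and 13.0 CPM in NL-shGFP. FL-shGFP replicates 3 and 4 were highest, and FL-shGFP replicate 2 lay within the NL-shGFP range. Fn1 rose by 2.30 ± 0.53 in FL-shGFP over NL-shGFP (adjusted p = 0.00281, edgeR) and fell by 1.90 ± 0.52 in FL-shAlpl against FL-shGFP (adjusted p = 0.0116, edgeR).

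Igfbp7, a secreted protein that binds insulin-like growth factors, had 0.425, 1.04, 0.910, 0.937 and 4.05 CPM in FL-shAlpl, 4.18, 2.13, 4.19, 13.4 and 5.42 CPM in FL-shGFP and 0.479, 0.274, 0.262, 0.371 and 0.0568 CPM in NL-shGFP. The FL-shGFP and NL-shGFP libraries did not overlap, and FL-shAlpl replicate 5 was the one library of its group within the FL-shGFP range. Igfbp7 rose by 4.33 ± 0.69 in FL-shGFP (adjusted p = 0.000237, edgeR) and by 2.33 ± 0.66 in FL-shAlpl (adjusted p = 0.0252, edgeR) over NL-shGFP, and fell by 2.0 ± 0.60 in FL-shAlpl against FL-shGFP (adjusted p = 0.0185, edgeR). Without FL-shGFP replicate 4 the fall did not pass (adjusted p = 0.0659, edgeR), and without FL-shAlpl replicate 5 the rise in FL-shAlpl was 1.51 and did not pass (adjusted p = 0.0808, edgeR), the highest p among 4 of 15 such fits that lost it.

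Dcn, encoding decorin, a proteoglycan that coats collagen fibrils, had 12.3, 19.7, 7.05, 29.6 and 128 CPM in FL-shAlpl, 44.3, 26.7, 49.3, 183 and 75.2 CPM in FL-shGFP and 4.53, 3.51, 6.86, 6.43 and 1.73 CPM in NL-shGFP. Every fatty liver library lay above every NL-shGFP library, and 1 library in each fatty liver group stood far above its own group. Dcn rose by 4.04 ± 0.79 in FL-shGFP (adjusted p = 0.00101, edgeR) and by 3.09 ± 0.76 in FL-shAlpl (adjusted p = 0.0120, edgeR) over NL-shGFP. Against FL-shGFP the FL-shAlpl value was -0.94 ± 0.69 (adjusted p = 0.302, edgeR), and without FL-shAlpl replicate 5 it was -2.13 (adjusted p = 0.0111, edgeR). The rise in FL-shAlpl over NL-shGFP was 1.90 without that library (adjusted p = 0.0383, edgeR).

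Vim, encoding the intermediate filament protein of mesenchymal cells and leukocytes, had 20.2, 17.3, 9.33, 16.6 and 45.5 CPM in FL-shAlpl, 46.0, 32.4, 57.8, 86.3 and 46.8 CPM in FL-shGFP and 29.7, 32.1, 48.6, 50.6 and 16.6 CPM in NL-shGFP. FL-shGFP and NL-shGFP overlapped widely, and 4 of 5 FL-shAlpl libraries lay below every FL-shGFP library. Vim fell by 1.31 ± 0.39 in FL-shAlpl against FL-shGFP (adjusted p = 0.0185, edgeR), although not past the test without FL-shGFP replicate 4 (adjusted p = 0.0576, edgeR). In FL-shGFP over NL-shGFP its value was 0.60 ± 0.39 (adjusted p = 0.213, edgeR). Without FL-shAlpl replicate 5 Vim was lower in FL-shAlpl than in NL-shGFP (-1.16, adjusted p = 0.0377, edgeR). Leukocytes also make it, and the summed CPM of 8 leukocyte markers was 68.9 to 257 in FL-shAlpl, 196 to 585 in FL-shGFP and 85.0 to 225 in NL-shGFP. The part of leukocytes in the Vim values was not tested.

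The chains of collagens I and III, the bulk of interstitial matrix, did not pass in any comparison. Col3a1, the chain of type III collagen, had 3.92, 10.8, 5.50, 9.47 and 82.9 CPM in FL-shAlpl, 18.8, 13.7, 19.4, 72.1 and 44.1 CPM in FL-shGFP and 3.30, 2.09, 27.5, 25.2 and 13.2 CPM in NL-shGFP. NL-shGFP replicates 3 and 4 lay among the FL-shGFP libraries while replicates 1, 2 and 5 lay below all of them, replicate 5 only just. The FL-shGFP over NL-shGFP values were 1.43 ± 0.87 for Col1a1, 1.58 ± 0.88 for Col1a2 and 1.24 ± 0.87 for Col3a1 (adjusted p = 0.186, 0.151 and 0.253, edgeR). FL-shAlpl against FL-shGFP gave -0.997 ± 0.86, -0.46 ± 0.85 and -0.58 ± 0.85 (adjusted p = 0.381, 0.702 and 0.622, edgeR). Without FL-shAlpl replicate 5 Col1a1 and Col3a1 passed at -2.25 and -2.17 (adjusted p = 0.0413 and 0.0312, edgeR). The chains of collagen V, a minor fibrillar collagen outside the 44, were higher in FL-shGFP than in NL-shGFP, at 2.61 ± 0.90 for Col5a1 and 2.35 ± 0.81 for Col5a2 (adjusted p = 0.0280 and 0.0282, edgeR).

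The remaining matrix genes are given by protein family. Of the type VI chains, which form beaded filaments around cells, Col6a1 (2.99 ± 0.60) and Col6a2 (2.75 ± 0.62) rose in FL-shGFP over NL-shGFP (adjusted p = 0.00126 and 0.00266, edgeR), while Col6a3 was at 1.41 ± 0.77 and did not pass (adjusted p = 0.142, edgeR). Pdgfra, the PDGF receptor of fibroblasts, rose by 3.53 ± 0.82 in FL-shGFP and by 3.47 ± 0.82 in FL-shAlpl over NL-shGFP (adjusted p = 0.00322 and 0.00993, edgeR). Pdgfrb, the receptor of pericytes, was at -0.44 ± 0.33 in FL-shGFP over NL-shGFP and did not pass (adjusted p = 0.293, edgeR). Biglycan (Bgn, 3.15 ± 0.70) and the matricellular protein Sparc (2.05 ± 0.72) rose in FL-shGFP over NL-shGFP (adjusted p = 0.00230 and 0.0300, edgeR), although the Sparc call was lost in 4 of the 15 fits that left out 1 library, most so without FL-shGFP replicate 4 (1.52, adjusted p = 0.101, edgeR). Bgn also rose in FL-shAlpl over NL-shGFP (2.22 ± 0.68, adjusted p = 0.0347, edgeR), a call lost in 5 of those 15 fits, most so without FL-shAlpl replicate 5 (1.33, adjusted p = 0.127, edgeR). Fbln1, the elastic fibre protein fibulin-1, had the lowest value of the 21 in FL-shGFP over NL-shGFP (-1.16 ± 0.47, adjusted p = 0.0547, edgeR), with means of 9.75 ± 6.69, 6.18 ± 3.53 and 13.8 ± 4.67 CPM in FL-shAlpl, FL-shGFP and NL-shGFP (SD, n = 5 each). Fbln1 passed as lower in FL-shGFP in 5 of the 15 fits that left out 1 library, and also with the replicate block, with only the 2 groups compared and with DESeq2 (adjusted p = 0.0302, 0.0187 and 0.0251). Lumican (Lum, 1.03 ± 1.08) and periostin (Postn, 1.15 ± 0.99) did not pass in FL-shGFP over NL-shGFP (adjusted p = 0.453 and 0.356, edgeR), and both values turned negative without FL-shGFP replicate 4 (-0.10 and -0.32).

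**Figure D3:**
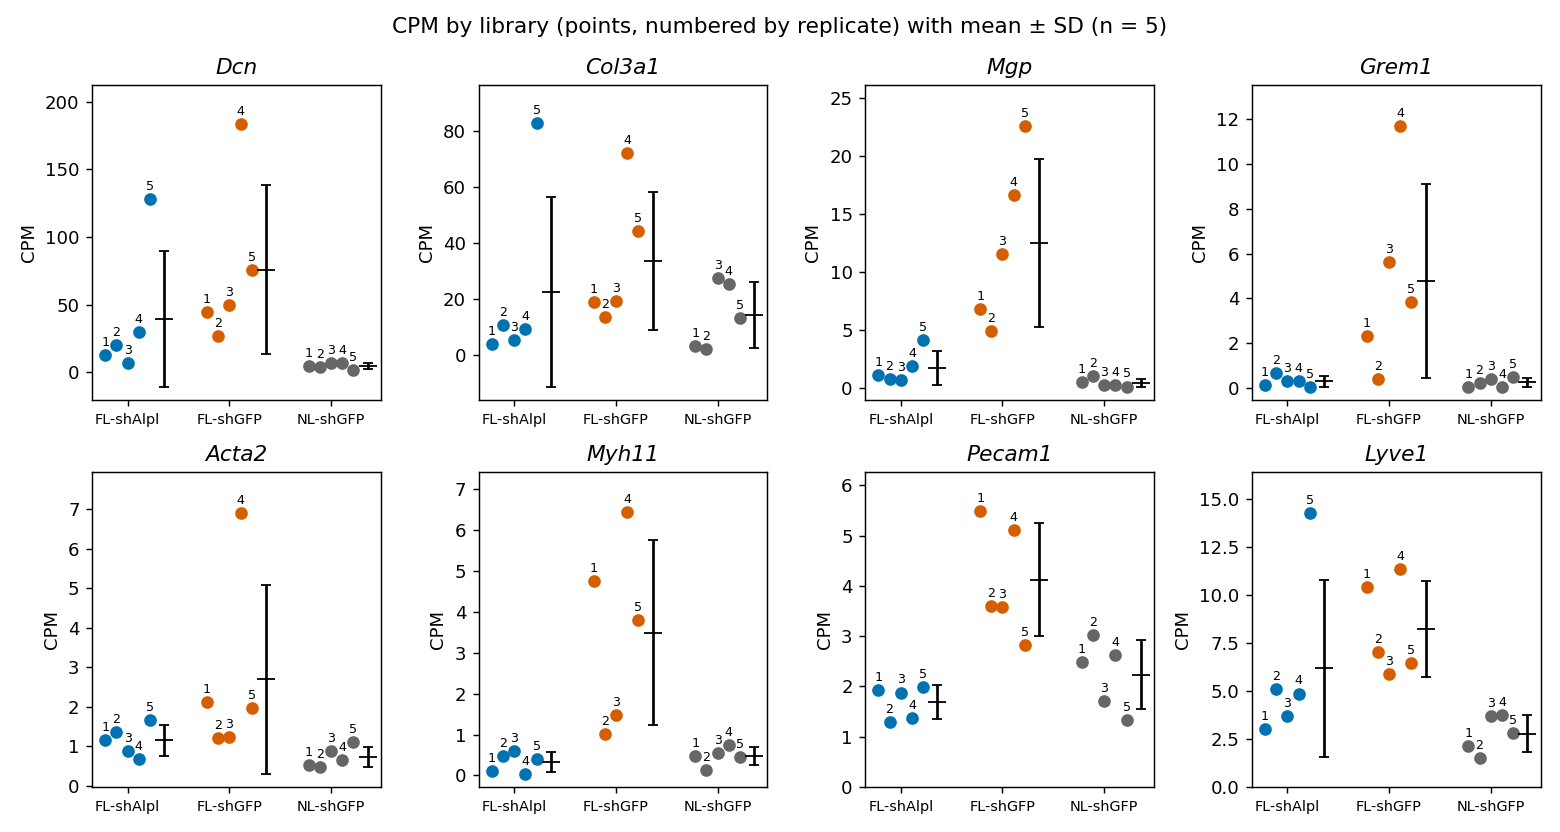
CPM of 8 genes in each library (points numbered by replicate, n = 5 a group), with the group mean and SD beside them in black. Dcn and Col3a1 show FL-shAlpl replicate 5 and FL-shGFP replicate 4 far above their groups, at 128 and 183 CPM for Dcn, whereas in Grem1 and Myh11 FL-shGFP replicate 4 is the highest library (11.7 and 6.42 CPM) and FL-shAlpl replicate 5 is low (0.0494 and 0.395 CPM).

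Of the 9 smooth muscle genes 7 were tested. In FL-shGFP over NL-shGFP 5 were higher and 0 lower (median 2.15, 2 without overlap), namely Acta2, Myh11, Myl9, Des and Actg2. In FL-shAlpl against FL-shGFP 4 were lower and 0 higher (median -1.58, 2 without overlap), namely Acta2, Myh11, Myl9 and Des. In FL-shAlpl against NL-shGFP 0 of 7 passed, with log2 fold changes from -0.52 to 0.66. Without FL-shGFP replicate 4 there were 4 higher in FL-shGFP and 2 lower in FL-shAlpl. With each library left out in turn, the number lower in FL-shAlpl ran from 2 to 6. It was also 2 without FL-shGFP replicate 1.

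Myh11, the smooth muscle myosin heavy chain, had 0.102, 0.485, 0.607, 0.0416 and 0.395 CPM in FL-shAlpl, 4.74, 1.01, 1.47, 6.42 and 3.80 CPM in FL-shGFP and 0.479, 0.125, 0.556, 0.741 and 0.455 CPM in NL-shGFP. Every FL-shGFP library lay above every library of the other groups. Myh11 rose by 2.88 ± 0.65 over NL-shGFP (adjusted p = 0.00239, edgeR) and fell by 3.41 ± 0.66 in FL-shAlpl against FL-shGFP (adjusted p = 0.00167, edgeR), a log2 change that ran from -3.75 without FL-shAlpl replicate 3 to -3.07 without FL-shGFP replicate 4.

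Des, encoding desmin, the intermediate filament protein of muscle, had 0.340, 0.190, 0.322, 0.458 and 0.445 CPM in FL-shAlpl, 1.53, 1.24, 0.584, 3.42 and 2.07 CPM in FL-shGFP and 0.180, 0.0997, 0.327, 0.371 and 0.625 CPM in NL-shGFP. All FL-shAlpl libraries lay below every FL-shGFP library, and FL-shGFP replicate 3 lay just below the highest NL-shGFP library. Desmin RNA rose by 2.45 ± 0.50 in FL-shGFP over NL-shGFP (adjusted p = 0.00122, edgeR) and fell by 2.33 ± 0.49 in FL-shAlpl against FL-shGFP (adjusted p = 0.00259, edgeR).

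Acta2, the smooth muscle actin also made by myofibroblasts, had 1.17, 1.37, 0.891, 0.687 and 1.68 CPM in FL-shAlpl, 2.13, 1.22, 1.25, 6.90 and 1.98 CPM in FL-shGFP and 0.539, 0.473, 0.883, 0.662 and 1.11 CPM in NL-shGFP. FL-shGFP replicate 4 stood far above the rest, and the FL-shGFP and NL-shGFP libraries did not overlap. It rose by 1.87 ± 0.47 in FL-shGFP over NL-shGFP (adjusted p = 0.00452, edgeR), and by 1.17 without that library. The fall of 1.21 ± 0.45 in FL-shAlpl against FL-shGFP passed narrowly (adjusted p = 0.0459, edgeR) and was lost in 10 of the 15 fits that left out 1 library, most so without FL-shGFP replicate 4 (-0.50, adjusted p = 0.264, edgeR). Actins share long stretches of sequence, and how the counting dealt with shared reads is not given in the sources used here, so Acta2 and Actg2 values are uncertain.

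Myl9, the regulatory myosin light chain whose promoter window is shown above, had 0.306, 0.381, 0.531, 0.208 and 0.445 CPM in FL-shAlpl, 1.01, 0.648, 0.262, 2.91 and 0.828 CPM in FL-shGFP and 0.180, 0.0997, 0.392, 0.476 and 0.114 CPM in NL-shGFP. FL-shGFP replicate 4 was the highest and FL-shGFP replicate 3 lay among the other groups. Myl9 rose by 2.15 ± 0.59 in FL-shGFP over NL-shGFP (adjusted p = 0.00845, edgeR). Its fall of 1.58 ± 0.56 in FL-shAlpl against FL-shGFP (adjusted p = 0.0391, edgeR) was lost in 6 of the 15 fits that left out 1 library, most so without FL-shGFP replicate 4 (-0.87, adjusted p = 0.196, edgeR).

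Tpm2, a tropomyosin and the most abundant of the class, had 5.55, 5.07, 5.61, 3.71 and 2.94 CPM in FL-shAlpl, 4.61, 3.77, 3.69, 8.47 and 5.16 CPM in FL-shGFP and 4.38, 6.68, 2.39, 3.10 and 1.05 CPM in NL-shGFP. The 3 groups overlapped. Its value in FL-shGFP over NL-shGFP was 0.54 ± 0.38 (adjusted p = 0.252, edgeR). Tagln, encoding transgelin, an actin-binding protein, was at 0.55 ± 0.28 and did not pass either (adjusted p = 0.112, edgeR). Actg2, the enteric smooth muscle actin, rose by 2.50 ± 0.83 (adjusted p = 0.0227, edgeR), a call lost in 3 of the 15 fits that left out 1 library, most so without FL-shGFP replicate 4 (1.44, adjusted p = 0.126, edgeR). Calponin (Cnn1) and leiomodin (Lmod1) were too scarce to test. Cnn1 had 36, 110 and 14 counts and Lmod1 2, 30 and 10 counts, summed over FL-shAlpl, FL-shGFP and NL-shGFP.

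Of the 12 endothelial genes 10 were tested. In FL-shGFP over NL-shGFP 7 were higher and 0 lower (median 1.26, 4 without overlap): Pecam1, Cdh5, Tie1, Tek, Vwf, Plvap and Lyve1. In FL-shAlpl against FL-shGFP 4 were lower and 0 higher (median -1.02, 2 without overlap): Pecam1, Tie1, Plvap and Esam. In FL-shAlpl over NL-shGFP 3 were higher (median 0.57): Tie1, Tek and Vwf. The number lower in FL-shAlpl than in FL-shGFP was 2 without FL-shGFP replicate 4.

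Pecam1, the adhesion molecule CD31 of endothelium that some leukocytes carry too, had 1.94, 1.28, 1.88, 1.37 and 1.98 CPM in FL-shAlpl, 5.49, 3.61, 3.59, 5.11 and 2.82 CPM in FL-shGFP and 2.49, 3.02, 1.70, 2.62 and 1.34 CPM in NL-shGFP. All FL-shAlpl libraries lay below every FL-shGFP library, and 4 of 5 FL-shGFP libraries lay above every NL-shGFP library. It rose by 0.88 ± 0.26 in FL-shGFP over NL-shGFP (adjusted p = 0.0111, edgeR) and fell by 1.29 ± 0.26 in FL-shAlpl against FL-shGFP (adjusted p = 0.00200, edgeR), a log2 change that ran from -1.39 without FL-shGFP replicate 5 to -1.16 without FL-shGFP replicate 1. Its mean was 1.69 ± 0.334 CPM in FL-shAlpl, 4.12 ± 1.13 CPM in FL-shGFP and 2.23 ± 0.692 CPM in NL-shGFP (SD, n = 5 each).

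Tie1, an orphan receptor tyrosine kinase of endothelium, was nearly absent from NL-shGFP. It had 0.119, 0.312, 0.0948, 0.125 and 0.297 CPM in FL-shAlpl, 0.517, 0.567, 0.564, 1.43 and 1.15 CPM in FL-shGFP and 0, 0, 0, 0 and 0.0568 CPM in NL-shGFP. No group overlapped another. Summed counts were 189 in FL-shGFP against 2 in NL-shGFP, a depth-corrected ratio of 72.1 (95% counting interval 19.7 to 599, adjusted p = 5.26e-05, edgeR), and 48 in FL-shAlpl against 2, a ratio of 16.5 (4.32 to 140, adjusted p = 0.00630, edgeR). The intervals cover counting error only, and take each count as 1 molecule. Tie1 fell by 2.14 ± 0.53 in FL-shAlpl against FL-shGFP (adjusted p = 0.00668, edgeR).

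Lyve1, the hyaluronan receptor of lymphatic endothelium and some macrophages, had 3.01, 5.09, 3.70, 4.87 and 14.3 CPM in FL-shAlpl, 10.4, 7.03, 5.88, 11.4 and 6.47 CPM in FL-shGFP and 2.13, 1.52, 3.69, 3.73 and 2.79 CPM in NL-shGFP. The FL-shGFP and NL-shGFP libraries did not overlap, and FL-shAlpl replicate 5 was the highest of all 15. Lyve1 rose by 1.57 ± 0.40 in FL-shGFP over NL-shGFP (adjusted p = 0.00495, edgeR). Its value in FL-shAlpl against FL-shGFP was -0.41 ± 0.38 (adjusted p = 0.417, edgeR), and without FL-shAlpl replicate 5 it was -0.98 and passed (adjusted p = 0.0163, edgeR).

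Plvap, which forms the diaphragms of fenestrated capillaries, had 0.136, 0.381, 0.626, 0.624 and 0.692 CPM in FL-shAlpl, 1.27, 0.689, 0.665, 1.84 and 1.17 CPM in FL-shGFP and 0.420, 0.399, 0.131, 0.503 and 0.227 CPM in NL-shGFP. FL-shGFP and NL-shGFP did not overlap, and 4 of 5 FL-shAlpl libraries lay below every FL-shGFP library. Plvap rose by 1.72 ± 0.46 over NL-shGFP (adjusted p = 0.00687, edgeR). The fall of 1.20 ± 0.44 in FL-shAlpl against FL-shGFP (adjusted p = 0.0451, edgeR) was lost in 10 of the 15 fits that left out 1 library, most so without FL-shGFP replicate 4 (adjusted p = 0.128, edgeR).

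Esam, an adhesion molecule of endothelial junctions, had 0.611, 0.450, 0.531, 0.291 and 0.667 CPM in FL-shAlpl, 1.42, 0.608, 0.685, 1.72 and 1.15 CPM in FL-shGFP and 0.659, 0.847, 0.981, 0.794 and 0.540 CPM in NL-shGFP. The groups overlapped in each comparison. Esam fell by 1.12 ± 0.33 in FL-shAlpl against FL-shGFP (adjusted p = 0.0169, edgeR), not past the test without FL-shGFP replicate 4 (adjusted p = 0.0524, edgeR). In FL-shGFP over NL-shGFP it was at 0.54 ± 0.33 (adjusted p = 0.186, edgeR).

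The remaining endothelial genes differed among themselves. Vwf, the von Willebrand clotting factor, rose in FL-shGFP (0.86 ± 0.26, adjusted p = 0.0141, edgeR) and in FL-shAlpl (1.23 ± 0.26, adjusted p = 0.00519, edgeR) over NL-shGFP, and in both cases no library overlapped NL-shGFP. It averaged 3.27 ± 1.21, 2.53 ± 0.455 and 1.39 ± 0.292 CPM in FL-shAlpl, FL-shGFP and NL-shGFP (SD, n = 5 each). Tek, the angiopoietin receptor, rose by 1.92 ± 0.62 in FL-shGFP and 1.86 ± 0.62 in FL-shAlpl over NL-shGFP (adjusted p = 0.0190 and 0.0476, edgeR). The first value did not pass without FL-shGFP replicate 4 (1.57, adjusted p = 0.0563, edgeR), and the second was lost in 11 of the 15 fits that left out 1 library, most so without FL-shAlpl replicate 5 (1.17, adjusted p = 0.172, edgeR). Cdh5, the endothelial cadherin, rose by 2.44 ± 0.79 in FL-shGFP over NL-shGFP (adjusted p = 0.0199, edgeR). Kdr, the main VEGF receptor, was at 0.06 ± 0.70 and the TGF-beta co-receptor Eng at 0.94 ± 0.39 in the same comparison, and neither passed (adjusted p = 0.952 and 0.0562, edgeR). Endomucin (Emcn) and claudin 5 (Cldn5) were not tested, with 21, 42 and 10 counts for Emcn and 30, 80 and 12 counts for Cldn5, summed over FL-shAlpl, FL-shGFP and NL-shGFP.

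RNA of the glial genes S100b and Sox10 was close to undetected. This does not hold for all glial RNA, since the glial filament gene Gfap, given with the further genes below, had enough counts to test. S100b, a calcium-binding protein of enteric glia, had 30, 20 and 1 counts summed over FL-shAlpl, FL-shGFP and NL-shGFP, with 0.0170, 0.156, 0.114, 0.0833 and 0.247 CPM in FL-shAlpl, 0.0646, 0.243, 0.0604, 0 and 0.0376 CPM in FL-shGFP and 0, 0, 0, 0.0265 and 0 CPM in NL-shGFP. Its depth-corrected ratio was 20.6 in FL-shAlpl over NL-shGFP (95% counting interval 3.42 to 840) and 15.2 in FL-shGFP over NL-shGFP (2.44 to 632), neither with a replicated test. Sox10, the transcription factor of glia, had 2, 10 and 2 counts, each group's counts coming from 1 library. For Sox10 the ratio was 0.687 in FL-shAlpl over NL-shGFP (0.0498 to 9.47) and 3.81 in FL-shGFP over NL-shGFP (0.812 to 35.8), so no difference was detectable at this depth.

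The spread among libraries differed by class. The coefficient of variation over 5 libraries, taken as the median over tested genes, was 98.5% in FL-shAlpl, 74.6% in FL-shGFP and 54.2% in NL-shGFP for fibroblast and matrix genes. It was 33.2%, 64.8% and 60.7% for smooth muscle genes and 51.4%, 45.9% and 39.9% for endothelial genes, in the same order of groups. FL-shGFP replicate 4 was the highest library of its group for 33 of the 44 genes, among them 19 of 21 fibroblast and matrix, 7 of 9 smooth muscle and 7 of 12 endothelial genes. FL-shAlpl replicate 5 was the highest of its group for 32, among them 19 of 21 fibroblast and matrix, 2 of 9 smooth muscle, 9 of 12 endothelial and 2 of 2 glial genes. In NL-shGFP the highest was replicate 4, for 19 genes, and FL-shGFP replicate 2 was the lowest of its group for 24.

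Levels were also summed per class, in FPKM. These values are not corrected for library composition, in which the mitochondrial share differed between groups, and no test was run on the sums. Fibroblast and matrix genes summed to 15.9, 19.3, 13.0, 26.2 and 80.6 FPKM in FL-shAlpl, 44.5, 27.5, 61.2, 125 and 87.6 FPKM in FL-shGFP and 13.0, 13.9, 24.6, 25.7 and 17.1 FPKM in NL-shGFP, by replicate. All 5 FL-shGFP libraries lay above every NL-shGFP library, and FL-shAlpl replicate 5 was the one library of its group within the FL-shGFP range. Smooth muscle sums were 2.45 to 3.88 FPKM in FL-shAlpl, with replicate 5 at 2.81, 3.33 to 11.3 in FL-shGFP and 1.84 to 2.88 in NL-shGFP. Endothelial sums were 2.43 to 7.07 FPKM in FL-shAlpl, with replicate 5 the highest, 4.24 to 7.38 in FL-shGFP and 1.90 to 2.60 in NL-shGFP. Single genes weigh heavily in these sums. Lyve1, which some macrophages make too, gave 4.71 of the 7.07 FPKM in FL-shAlpl replicate 5. Tpm2, whose groups overlapped, averaged 1.68 of 3.19 FPKM of the smooth muscle sum in FL-shAlpl. In FL-shGFP it averaged 1.73 of 5.88 FPKM and in NL-shGFP 1.15 of 2.24 FPKM.

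**Figure D4:**
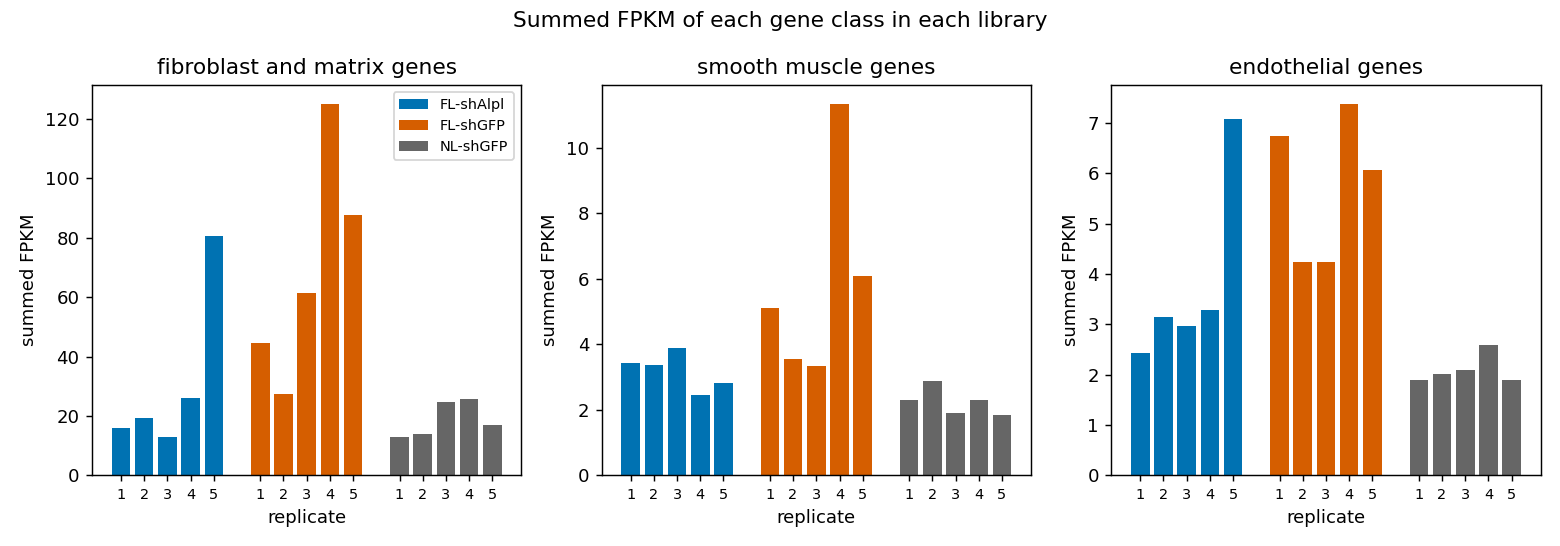
Summed FPKM of the fibroblast and matrix, smooth muscle and endothelial genes (panels) in each library (bars, numbered by replicate within each group, n = 5). FL-shAlpl replicate 5 is high in the left panel (80.6 FPKM) but not in the middle panel (2.81 FPKM), while FL-shGFP replicate 4 is the highest of its group in all 3 panels. Tpm2 weighs heavily in the middle panel and Lyve1 in the right panel.

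Other measures also lay at an end of their group's range in these 2 libraries, some by little. In FL-shAlpl the next library had 44.4 M counts, and another had a mitochondrial share of 22.1%. FL-shAlpl replicate 5 had the fewest counts of its group (42.1 M), the highest mitochondrial share (24.3%) and the highest leukocyte marker sum (257 CPM). FL-shGFP replicate 4 likewise had the fewest counts (37.5 M), the highest mitochondrial share (21.5%) and the highest leukocyte marker sum (585 CPM) of its group. Of the 8 leukocyte markers 5 were higher and 0 lower in FL-shGFP than in NL-shGFP, 4 were lower and 0 higher in FL-shAlpl than in FL-shGFP, and none was at 0 in a group. Of the 7 epithelial markers 4 were higher and 1 lower in the first of these comparisons, and 1 higher and 1 lower in the second. Among all genes 25.1% were higher and 21.6% lower in the first, and 18% higher and 17.9% lower in the second. Epithelial marker sums were 6881 to 10169 CPM in FL-shAlpl, 7166 to 10258 in FL-shGFP and 6064 to 7787 in NL-shGFP. FL-shAlpl replicate 5 had the highest epithelial sum of its group too, and FL-shGFP replicate 4 the median one (9296 CPM). The erythroid marker sum was at the median of its group in FL-shAlpl replicate 5 (71.8 CPM) and the highest in FL-shGFP replicate 4 (317 CPM). Of the fat cell markers, Adipoq (8, 6 and 2 summed counts in FL-shAlpl, FL-shGFP and NL-shGFP) and Plin1 (2, 2 and 0) were at or near 0 and were not tested. Fabp4, a fatty acid binding protein of fat cells that capillary endothelium and macrophages make too, had 90, 450 and 23 summed counts. It was higher in FL-shGFP than in NL-shGFP (3.93 ± 0.64, adjusted p = 0.000237, edgeR) and lower in FL-shAlpl than in FL-shGFP (-2.54 ± 0.57, adjusted p = 0.00369, edgeR). Cfd, encoding adipsin, had 32, 64 and 5 counts and passed in neither comparison (adjusted p = 0.0554 and 0.478, edgeR). The part of these measures in the stromal values was not tested.

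Genes of the same tissues outside the 44 were read from the same fits, and each count stands against the 25.1% higher, 21.6% lower and 46.7% in either direction among all genes in FL-shGFP against NL-shGFP, and 18%, 17.9% and 36% in FL-shAlpl against FL-shGFP. Of 13 other basement membrane genes, 8 were higher and 1 lower in FL-shGFP than in NL-shGFP (median 1.12), among them the laminin chains Lamb3 and Lama5 at 2.11 ± 0.27 and 2.71 ± 0.37. In FL-shAlpl against FL-shGFP 2 of the 13 were higher and 3 lower (median -0.14). Of 18 tested collagens and matrix proteins 10 were higher and 1 lower (median 1.78), among them tenascin C (Tnc, 5.15 ± 0.77) and Col18a1 (2.87 ± 0.44), while prolargin (Prelp, -3.04 ± 0.39) was the gene that fell. The names given pass at edgeR adjusted p from 4.14e-05 (Prelp) to 0.000169 (Col18a1). In FL-shAlpl against FL-shGFP 1 of the 18 was higher and 4 lower (median -0.13). Of 9 genes of collagen folding and crosslinking 4 were higher and 1 lower (median 1.10), with the lysyl oxidases Loxl1 (3.04 ± 0.86) and Loxl2 (2.20 ± 0.71) higher and the prolyl hydroxylase P4ha2 (-1.18 ± 0.21) lower (adjusted p = 0.00991, 0.0194 and 0.000542, edgeR). The 5 of 9 called lay near the share of all genes, and 2 of 9 were lower and 0 higher in FL-shAlpl than in FL-shGFP (median -0.83). Of 10 matrix proteases and their inhibitors 6 were higher and 0 lower (median 2.19), including Mmp3 (3.24 ± 0.55), Mmp9 (2.43 ± 0.43) and the inhibitor Timp3 (2.20 ± 0.43). Of these 4 were lower and 0 higher in FL-shAlpl than in FL-shGFP (median -1.19).

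Fibroblasts also send growth factor signals to the crypt. Of 14 crypt niche factors 7 were tested, 5 were higher and 0 lower in FL-shGFP than in NL-shGFP (median 2.31), with Bmp4 (3.53 ± 0.66), Wnt4 (2.31 ± 0.49) and Bmp5 (4.16 ± 0.91), edgeR adjusted p = 0.000640, 0.00162 and 0.00192. In FL-shAlpl 3 of 7 were lower than in FL-shGFP and 0 higher (median -1.83), including Bmp4 (-1.83 ± 0.57) and Wnt4 (-2.36 ± 0.48), edgeR adjusted p = 0.0215 and 0.00215. Of 11 tested ligands of vessels and mesenchyme 5 were higher and 2 lower in FL-shGFP (median 0.89), Pdgfa (1.14 ± 0.20) and Vegfa (0.89 ± 0.21) rising and Vegfb (-0.88 ± 0.15) falling, while in FL-shAlpl against FL-shGFP 4 were lower and 1 higher (median -0.59), Pdgfa (-1.15 ± 0.20) and Vegfa (-1.14 ± 0.21) among the lower. The ligands were thus called in both directions, as genes overall were.

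Vessel walls and muscle were covered by further genes. Of 6 pericyte genes 4 were higher and 0 lower in FL-shGFP than in NL-shGFP (median 3.33), and 4 were lower and 0 higher in FL-shAlpl than in FL-shGFP (median -1.95). The adhesion molecule Mcam had the smallest p in both, at 3.01 ± 0.33 and -3.24 ± 0.33 (adjusted p = 1.67e-05 and 3.75e-05, edgeR), while in FL-shGFP the rises of Abcc9 (5.54 ± 0.91), Rgs5 (4.01 ± 0.81) and Kcnj8 (3.65 ± 0.67) had higher values. Cspg4 and Notch3 did not pass in FL-shGFP against NL-shGFP. Pdgfrb, the pericyte receptor counted above with the fibroblast and matrix genes, passed in neither comparison and had opposite signs. Its values were -0.44 ± 0.33 and 0.31 ± 0.33 (adjusted p = 0.293 and 0.486, edgeR). Of 9 tested smooth muscle genes 6 were higher and 1 lower in FL-shGFP (median 0.87), including caldesmon (Cald1, 2.63 ± 0.39) and myosin light chain kinase (Mylk, 1.32 ± 0.25), and 3 were lower and 0 higher in FL-shAlpl than in FL-shGFP (median -0.55). Of 6 tested endothelial genes 3 were higher and 0 lower in FL-shGFP (Ptprb 2.53 ± 0.55, Cav1 1.96 ± 0.48, Cd34 2.50 ± 0.63), and 4 were lower and 0 higher in FL-shAlpl than in FL-shGFP. Of 5 lymphatic genes 2 were higher in FL-shGFP (Reln 2.55 ± 0.66 and Pdpn 2.77 ± 0.79) and 0 of 5 passed in FL-shAlpl against FL-shGFP (medians 0.67 and -0.45), too few genes to set against the share of all genes. Of 6 tested genes of glia and enteric neurons 3 were higher and 0 lower in FL-shGFP, the neuronal Uchl1 (3.58 ± 0.68) and Prph (4.45 ± 1.26) and the glial filament Gfap (1.505 ± 0.47), and 3 were lower and 0 higher in FL-shAlpl than in FL-shGFP.

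Mesothelium, the cell layer that covers the outer surface of the gut, was represented by 4 genes. All 4 were higher in FL-shGFP than in NL-shGFP (median 3.71) and all 4 lower in FL-shAlpl than in FL-shGFP (median -3.07). Mesothelin (Msln) had values of 3.72 ± 0.51 and -3.44 ± 0.49 in the 2 comparisons (adjusted p = 7.27e-05 and 0.000257, edgeR), and the transcription factor Wt1 4.45 ± 0.76 and -3.39 ± 0.69 (adjusted p = 0.000386 and 0.00234, edgeR). In FL-shAlpl over NL-shGFP 0 of 4 passed (median 0.81). The comparisons share the FL-shGFP libraries.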

How the data were processed

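RNA of colon crypts was sequenced in 15 libraries. Per the labels' protocols, mRNA was enriched from RNA purified on columns. HISAT2 is named in the submitters' processing notes. Its version, the counter, the build and annotation, and any strand setting are not given in the sources used. The authors deposited a table of read counts per gene, with whole numbers and no normalization, and a table of FPKM, which are those counts divided by gene length and library total (relative spread at most 1.4e-06). FPKM was used to compare levels between genes, for ratios within a library and for the sums per class. It is not corrected for library composition.

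The counts of the 17404 genes that passed filterByExpr were fitted in edgeR 4.0.16 (R 4.3.3) with TMM factors and its robust quasi-likelihood method, all 3 groups together, with 12 residual degrees of freedom. Each of the 3 comparisons had a two-sided test, called at 0.05 after Benjamini-Hochberg adjustment over all genes tested. Fold changes are log2 with standard errors, CPM uses TMM-corrected totals, and ± beside CPM is the SD. Common biological variation between libraries was 30.2%. On simulated data, 80%, 77% and 85% of 4-fold changes and 60%, 47% and 53% of 2-fold changes were called among 17404 genes for the fatty liver comparison (FL-shGFP over NL-shGFP), FL-shAlpl over FL-shGFP and FL-shAlpl over NL-shGFP in that order, with 6, 5 and 12 unchanged genes called. Counts from 1 to 12 were even in 72.4% to 77.2% of cases per library.

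The 44 genes and the other lists were chosen with earlier results of these data known. Values per library are given, in each class, for the 3 genes with the smallest p in FL-shGFP against NL-shGFP, the 2 most abundant and up to 4 past the test in FL-shAlpl against FL-shGFP, with Col3a1 added after its values were seen. Of each other list up to 3 genes are named by p, and Col5a1, Col5a2, Fabp4, Cfd, Abcc9, Rgs5 and Kcnj8 were added after their values were seen. No pairing by replicate number was assumed. Correlations of same-numbered libraries ran from -0.50 to 0.40, with 5 of 15 over 0.1. In 5 of 15 cases the same-numbered library was the best match. Among these were replicates 1, 2 and 5 of FL-shGFP against NL-shGFP (0.20, 0.16 and 0.40). These values cannot settle whether the numbers pair the libraries. The alternatives were RLE factors, totals alone, no filter, 1 CPM in 5 libraries, DESeq2 1.42.0, a replicate block, only the groups compared, no mitochondrially encoded genes, close NL-shGFP libraries summed, and each library left out. Leaving out FL-shGFP replicate 4 and FL-shAlpl replicate 5 together was added after seeing the data. Promoter windows came from RefSeq (GRCm38.p6), whose relation to the files' build is not known. Figures used Python 3.11.15 and matplotlib 3.10.9.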

Additional observations from a re-analysis of the deposited data

Results flagged for a closer look

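In a group of 5 libraries, a highest or lowest value was flagged by Dixon's criterion, a gap over 0.71 of the group's range. This held for 31 of 132 gene and group combinations. The criterion's rate of about 1 in 20 applies to independent, normally distributed values. CPM values were not shown to be normal, and the combinations share the same 15 libraries, so the 31 were not set against chance. All values here are CPM, and all are the highest of their group.

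FL-shAlpl replicate 5 held 15 of the 31, mostly fibroblast and matrix genes. It had 128 for Dcn, against 29.6 in the next library of its group, and 82.9 for Col3a1, against 10.8. Its other collagen values were 21.4 for Col1a1, 42.3 for Col1a2, 11.7 for Col6a1 and 9.99 for Col6a2. The remaining matrix and fibroblast values were 10.2 for Lum, 12.3 for Pdgfra, 30.1 for Sparc, 10.8 for Bgn, 11.7 for Postn and 4.05 for Igfbp7. The endothelial genes Tek and Lyve1 stood at 2.92 and 14.3, and Sox10 at 0.0494. No smooth muscle gene of this library was among them.

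FL-shGFP replicate 4 held 7, of which 3 were smooth muscle genes. These were Acta2 at 6.90, Myl9 at 2.91 and Actg2 at 2.38. The others were Col6a3 at 5.83, Pdgfra at 11.4, Bgn at 19.1 and Postn at 11. Pdgfra, Bgn and Postn thus stood apart in 1 library of either fatty liver group.

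The other 9 were spread over 6 libraries. NL-shGFP replicate 5 stood apart in Pdgfrb (11.8), Actg2 (0.398) and Tie1 (0.0568), and NL-shGFP replicate 4 in S100b (0.0265) and Sox10 (0.0529). FL-shGFP replicate 5 did so in Cldn5 (0.979), FL-shGFP replicate 2 in S100b (0.243), FL-shGFP replicate 3 in Sox10 (0.201) and FL-shAlpl replicate 1 in Lmod1 (0.0340). For Tie1, Lmod1, Sox10 and NL-shGFP S100b the other 4 libraries were at 0.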

How the results depend on the processing

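Depth limited S100b, Sox10, Emcn, Cldn5, Cnn1 and Lmod1, whose counts were too low to test. A call was counted as held if it passed in every alternative in which its gene was tested. In FL-shGFP against NL-shGFP 19 of 24 calls held. In FL-shAlpl against FL-shGFP 7 of 14 held (Des, Fn1, Grem1, Mgp, Myh11, Pecam1 and Tie1). In FL-shAlpl against NL-shGFP 4 of 8 held (Col4a1, Pdgfra, Tie1 and Vwf). The filter of 1 CPM in 5 libraries tested only 27 of the genes, against 38 in the main fit. Des, Grem1 and Tie1 were among the genes it left out, so their calls were not checked there. Where a call was lost the cause was not tested.

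With each library left out in turn, genes higher in FL-shGFP than in NL-shGFP numbered 21 to 26 (24 with all libraries) and genes lower 0 to 1 (0). Genes lower in FL-shAlpl than in FL-shGFP numbered 8 to 23 (14), and FL-shAlpl against NL-shGFP had 5 to 11 higher (8) and 0 to 1 lower (0). The replicate block gave 23 higher and 1 lower in FL-shGFP against NL-shGFP. It gave 11 lower in FL-shAlpl against FL-shGFP and 6 higher in FL-shAlpl against NL-shGFP. Whether replicate numbers pair the libraries is not known. Lower in FL-shGFP than in NL-shGFP was also 1 gene with only the 2 groups compared and 1 with DESeq2. Each time the gene was Fbln1. DESeq2 called 21 lower in FL-shAlpl against FL-shGFP. For FL-shAlpl against NL-shGFP 5 were higher with no filter and 4 with the close NL-shGFP libraries summed, and 1 was lower without both FL-shGFP replicate 4 and FL-shAlpl replicate 5.

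Signs turned for values that passed in no setting in which they turned. FL-shAlpl against FL-shGFP, Pdgfra was 0.0049 with totals alone and 0.055 with the replicate block, and Tek 0.029 with totals alone. FL-shGFP against NL-shGFP, Kdr was -0.22 with the replicate block and -0.82 with both libraries left out, Lum -0.10 and Postn -0.32 with both left out. Leaving out 1 library gave -0.82 to 0.36 for Kdr, -0.10 to 1.55 for Lum and -0.32 to 1.67 for Postn in FL-shGFP against NL-shGFP, and -0.98 to 0.67 for Pdgfra, -0.75 to 0.30 for Tek and -1.89 to 0.10 for Col1a2 in FL-shAlpl against FL-shGFP.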
